A study of Mus musculus with 2 samples.

Results

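The genes of the hormones somatostatin and ghrelin were compared between the pancreata of WT and *Mafk*-Tg embryos together with the genes of their receptors, of the enzyme that acylates ghrelin and of the δ-cell factor HHEX. They are *Sst*, *Sstr1*, *Sstr2*, *Sstr3*, *Sstr4*, *Sstr5*, *Ghrl*, *Ghsr*, *Mboat4* and *Hhex*. They were taken by symbol, and each of the 10 genes, of 19938 genes measured, had 1 probe set that carries its symbol alone. Whole pancreata at E15.5 had been the source of the RNA, which was read on Affymetrix mouse gene arrays, 1 for WT and 1 for *Mafk*-Tg embryos. *Mafk*-Tg embryos carry a FLAG-tagged murine *Mafk* cDNA behind the rat *Insulin 1* promoter, so that the transgene is driven in β-cells, and WT embryos lack it. Both groups were on the ICR strain background, and the labels give 3 pancreata for each genotype. Whether those pancreata were pooled on the array is not stated in the sources used here.

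In the islet, somatostatin is made by δ-cells and restrains the release of insulin and glucagon through receptors that couple to inhibitory G proteins. Ghrelin is made by ε-cells, which are more frequent in the fetal than in the adult pancreas, and after birth chiefly by the stomach. Ghrelin binds its receptor GHSR, which adult δ-cells also carry, only once MBOAT4 has attached a fatty acid to it. The endocrine cells of all these hormones arise from progenitors that express *Neurog3*. HHEX is a homeodomain factor that keeps the identity of δ-cells and is also used in liver, endothelium and blood cells.

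*Sst* was higher in *Mafk*-Tg, *Sstr1* was just past the cutoff in the other direction, and the remaining 8 genes differed by less than 1.2-fold. The cutoff of 1.2-fold, or 0.26 on the log2 scale, is the one that the study set for its microarray list. The calls here were not compared with that list. With 1 array per genotype there is no replicate error, no test was run, and every difference below describes these 2 arrays. As a background, 7.96% of the 19938 genes were higher by at least 1.2-fold in *Mafk*-Tg and 10.5% were lower by as much. The counts of the gene lists further below are to be read beside the same shares. With 1 of 10 genes higher and 1 of 10 lower, the counts of the somatostatin and ghrelin genes were near that background. Of the 4 brighter genes, whose mean level was no lower than the probe set median, 1 was higher and 0 lower, beside 5.58% and 5.87% of all genes at such levels. Of the 6 dimmer genes 0 were higher and 1 was lower, beside 11.1% and 16.6%. At 1.5-fold, 0 of the 10 genes were higher and 0 lower, beside 0.697% and 1.27% of all genes. The log2 differences of the 10 genes, *Mafk*-Tg minus WT, were above 0 for 5 genes and below 0 for 5, with a median of 0.00, beside a median of -0.01 over all genes. Over the 4 brighter genes alone, of which *Sst* is 1, the median was 0.22.

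The 2 arrays also differed in sex-linked genes and in blood cell genes. *Xist* measured 4.40 in WT against 11.30 in *Mafk*-Tg on the log2 scale, and *Eif2s3y*, *Uty* and *Kdm5d* of the Y chromosome had differences of -5.68, -4.67 and -3.93. The WT array thus has the pattern of male RNA and the *Mafk*-Tg array that of female RNA, so sex and genotype cannot be told apart here. Of the 10 genes, 0 lie on the X or Y chromosome, which does not separate their values from sex. Leukocyte genes were lower in *Mafk*-Tg, at 9 of 12 measured, and so were erythroid genes, at 8 of 11. *Mafk* itself measured 6.75 in WT, with a difference of 0.25 in whole-pancreas RNA, which did not reach 1.2-fold. Markers of the labelled tissue were bright, with *Cpa1*, a digestive enzyme gene of acinar cells, at a log2 value of 13.48 in WT and *Gcg*, the glucagon gene, at 11.68.

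The hormone gene *Sst* had the largest difference of the 10. On the log2 scale it measured 8.39 in WT against 8.87 in *Mafk*-Tg. The difference of 0.47 is a fold of 1.39, which is 336 against 466 on the linear scale. Among the 1000 genes nearest to *Sst* in level, 5.40% were higher by 1.2-fold or more, and the robust SD of their differences was 0.13. The value lay well above the range of dim probe sets, with 85.1% of all probe sets at or below it in WT. In whole tissue, more somatostatin cells and more *Sst* RNA per cell cannot be told apart. Genes of other cells in the tissue also differed, with medians of -0.52 for erythroid, -0.47 for leukocyte and 0.24 for acinar genes. The part of such shifts in the value of *Sst* was not tested.

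**Figure D1:**
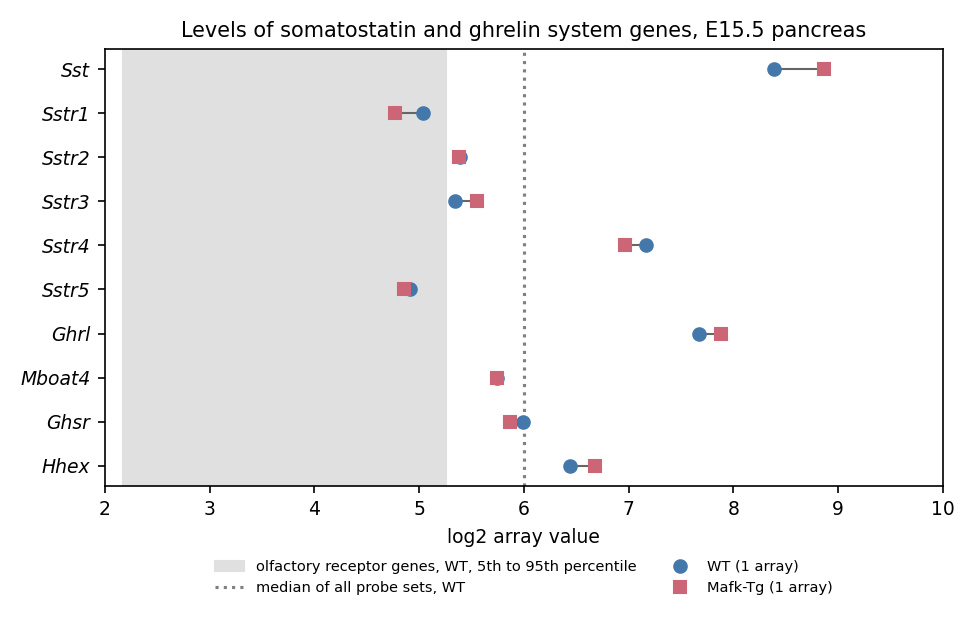
Log2 array values of the 10 genes in WT (circles) and *Mafk*-Tg (squares), 1 array each, with a line joining the values of a gene. The grey band spans the 5th to the 95th percentile of olfactory receptor genes in WT and the dotted line is the median of all probe sets in WT. *Sst* moves from 8.39 to 8.87, and *Sstr1* and *Sstr5* lie inside the band. Probe sets differ in binding strength, so the levels do not order the genes.

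The promoter windows of 7 of the 10 genes were found in the RefSeq table of GRCm38.p6, with 11 start sites in all. In each, the 250 bases before the start were searched on both strands for TGACGTCA, the cAMP response element through which the somatostatin gene is classically switched on, for TGCTGAC, the letters of 1 arm of the Maf recognition element, and for TAAT, the core bound by homeodomain factors such as PDX1. TGACGTCA and TGCTGAC share the letters TGAC, so that a match of one can overlap a match of the other. TGACGTCA was found before *Sst*, where it begins at position -48 from the start, and before *Sstr2*, at position -58, and in 1.55% of the 32851 windows of all genes. Since TGACGTCA is the known element of the somatostatin gene, its match before *Sst* was foreseeable, and the share of windows gives that match no weight. TGCTGAC was found in 0 of the 7 genes, beside 3.81% of all windows, and TAAT in *Sst* at position -95 and in *Ghsr* at position -106, beside 54.9% of all windows. These shares count windows rather than genes. The 11 windows, some of which overlap, are too few to set 0 matches of TGCTGAC apart from a share of 3.81%. Only exact letters were counted. In *Sst*, the letters GGCTGAC run into TGACGTCA and differ from TGCTGAC by 1 letter, so a count of 0 does not show that a similar element is absent. These matches are letters in a reference sequence, and binding was not measured. The 3 windows are shown because *Sst* is the gene that differed most, *Sstr2* also holds TGACGTCA, and *Ghrl* is the other hormone gene. *Ghrl* holds none of the 3 motifs in any of its 4 windows. *Sstr2* is a dim gene, with 38.7% of all probe sets at or below it in WT. No link between a motif and a difference was tested. Capitals mark TGACGTCA and, in *Sst*, TAAT. The *Sst* window is chr16:23890845-23891094 on the minus strand, that of *Sstr2* is chr11:113619077-113619326 on the plus strand, and that of *Ghrl*, the outermost of its starts, is chr6:113719912-113720161 on the minus strand.
Sst: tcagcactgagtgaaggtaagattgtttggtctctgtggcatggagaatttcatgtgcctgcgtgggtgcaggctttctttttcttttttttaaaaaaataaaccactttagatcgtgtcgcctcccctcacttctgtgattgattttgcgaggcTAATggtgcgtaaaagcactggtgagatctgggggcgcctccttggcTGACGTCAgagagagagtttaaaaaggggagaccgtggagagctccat
Sstr2: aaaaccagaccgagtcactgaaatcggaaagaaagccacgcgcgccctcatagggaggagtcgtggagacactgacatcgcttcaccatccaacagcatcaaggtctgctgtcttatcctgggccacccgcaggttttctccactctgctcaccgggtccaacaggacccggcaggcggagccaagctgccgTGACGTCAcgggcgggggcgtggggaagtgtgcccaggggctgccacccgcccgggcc
Ghrl: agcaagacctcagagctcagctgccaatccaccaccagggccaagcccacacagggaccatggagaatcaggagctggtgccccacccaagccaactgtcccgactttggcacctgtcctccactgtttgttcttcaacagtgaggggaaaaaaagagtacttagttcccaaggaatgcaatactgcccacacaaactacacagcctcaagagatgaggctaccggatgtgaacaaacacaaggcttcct

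The 5 somatostatin receptor genes did not share a direction. *Sstr1* measured 5.04 in WT against 4.77 in *Mafk*-Tg on the log2 scale, a difference of -0.27 and a fold of 1.21 between the arrays. *Sstr2*, whose product is a main somatostatin receptor of α-cells in rodents, had 5.39 and 5.38, a difference of -0.01. *Sstr3* had 5.35 in WT against 5.55 in *Mafk*-Tg, a difference of 0.20. Of these, *Sstr1* alone reached 1.2-fold, and *Sstr2* was almost equal on the 2 arrays. *Sstr4* had 7.16 and 6.97, a difference of -0.20, and it was the only receptor of the 5 with values above the medians of the arrays. *Sstr5*, whose product restrains insulin release from β-cells, had 4.91 and 4.85, a difference of -0.06.

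The level of the dim receptor genes limits what their values can show. Olfactory receptor genes, which serve sensory neurons of the nose and were chosen as a yardstick after the values had been seen, had a median level of 3.67 in WT against 3.64 in *Mafk*-Tg over 1015 genes. Their 95th percentile was 5.26 in WT and 5.22 in *Mafk*-Tg. *Sstr1* and *Sstr5* lay at or below it on both arrays, so their RNA was not distinguishable from background by this yardstick, and 8 of the 10 genes lay above it. *Sstr2* and *Sstr3* were close to it, with 4.14% and 4.43% of olfactory receptor genes at or above their values in WT. Olfactory receptor genes were also lower in *Mafk*-Tg as a group, with a median difference of -0.11 and 27.9% of them at least 1.2-fold lower. The value of -0.27 for *Sstr1* stands beside these, and among the 1000 genes nearest to it in level 16.5% were at least 1.2-fold lower. Once a loess trend of differences along the level had been taken out, *Sstr1* had -0.25 and no longer passed the cutoff.

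**Figure D2:**
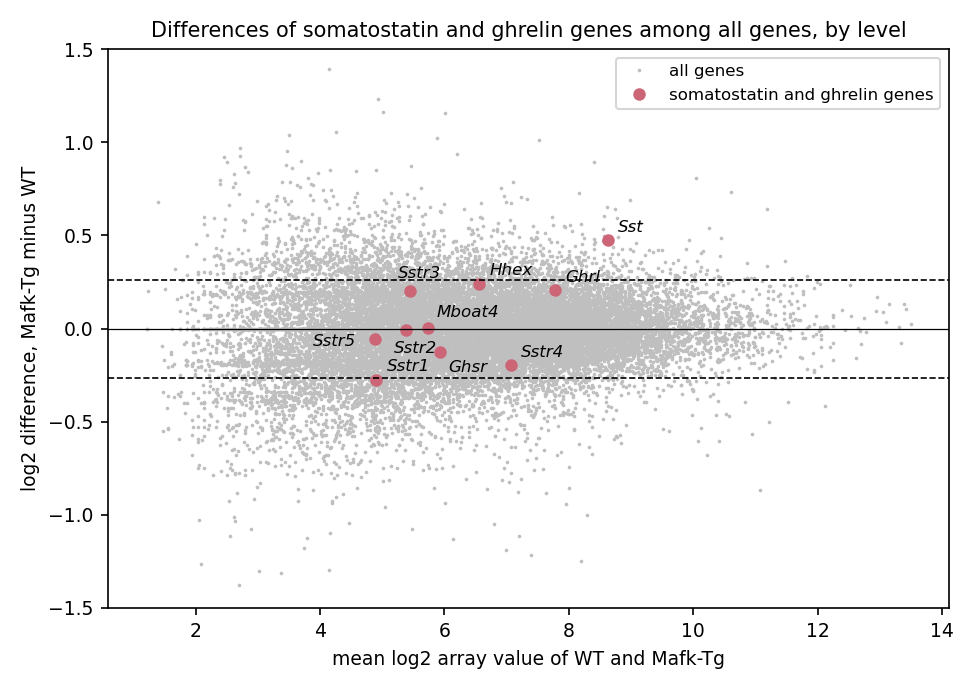
Difference on the log2 scale, as *Mafk*-Tg minus WT, for every gene against its mean log2 value on the 2 arrays, with the 10 genes named in red, all genes in grey and dashed lines at 1.2-fold. The spread of the grey points narrows with level. *Sst* at 0.47 lies in their upper part, with some genes of similar level above it, while *Sstr1* at -0.27 lies among many dim genes. The 9 genes with a difference of 1.5 or more in size are outside the plot.

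The genes of ghrelin, its acylating enzyme and its receptor differed by less than 1.2-fold. *Ghrl* measured 7.68 in WT against 7.88 in *Mafk*-Tg on the log2 scale, a difference of 0.21 and a fold of 1.15. *Mboat4*, whose product acylates ghrelin, had 5.74 on both arrays, with a difference of 0.00. *Ghsr* had 5.99 in WT against 5.87 in *Mafk*-Tg, a difference of -0.12. *Ghrl* thus lay in the same direction as *Sst* with a smaller difference, while the genes of its enzyme and its receptor had differences near 0 or below it. Among the 1000 genes nearest to *Ghrl* in level, 50 were at least 1.2-fold higher, with a robust SD of 0.15.

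Stomach genes bear on *Ghrl*, since the stomach is rich in ghrelin cells. Of 15 gastric genes 2 were at least 1.2-fold higher and 2 lower, with a median difference of 0.03. *Cym*, the gene of the milk-clotting protease chymosin, went from 7.17 to 10.51, a difference of 3.34, and *Atp4a*, a proton pump gene of parietal cells, had 0.30. *Gkn1* and *Gkn3* of the gastric mucosa had -0.40 and -0.26. *Gkn3* lay in the range of olfactory receptor genes on both arrays, with 4.57 and 4.30, and *Gkn1* in *Mafk*-Tg, with 5.48 in WT and 5.08 in *Mafk*-Tg. The summed log2 level of the 15 genes was 10.10 in WT and 11.24 in *Mafk*-Tg, and without *Cym* it was 9.90 and 9.91. The brightest of the 15 in WT was *Barx1* at 8.45, with a difference of -0.03, and it is also among the mesenchyme genes used here. Of the 15 genes, 10 had mean levels below the median of the arrays. The mucosal markers *Muc5ac* and *Tff1* had WT values of 5.14 and 5.73, below the median of the arrays, and *Muc5ac* also lay in the range of olfactory receptor genes. Other stomach genes of the list went the other way, with *Tff2*, *Atp4a* and *Gast* at 6.70, 6.42 and 6.31 in WT, above the median of 6.01. Of 10 intestinal genes 2 were higher and 0 lower, *Cdx1* at 0.51 and *Isx* at 0.32, of which *Isx* lay in the range of olfactory receptor genes with 4.34 and 4.66. The part of gastric tissue in the values of *Ghrl* was not tested.

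*Hhex* measured 6.44 in WT against 6.68 in *Mafk*-Tg on the log2 scale, a difference of 0.24. Its fold of 1.18 was the nearest to the cutoff among the 8 genes that did not pass it. Around its level 7.80% of the 1000 nearest genes were at least 1.2-fold higher and 7.80% lower. *Hhex* is not restricted to δ-cells. Of the other cells that use it, hepatocyte genes were lower in *Mafk*-Tg, at 10 of 14 with a median difference of -0.41, led by *Apob* at -0.94 and *Trf* at -0.59, while *Ttr*, which islet cells also express, was higher by 0.27. Leukocyte genes had a median of -0.47, with *Mpo* at 8.79 in WT against 7.79 in *Mafk*-Tg and *Srgn* with a difference of -0.87. Endothelial genes had a median of -0.09, with 1 of 12 lower, *Cldn5* at -0.36. Duct and trunk epithelium genes had 0.15, with 1 of 10 higher, *Muc1* at 0.30, and 1 lower, *Cftr* at -0.41. *Cftr* measured 4.42 in WT and 4.01 in *Mafk*-Tg, in the range of olfactory receptor genes on both arrays. The part of each cell type in the value of *Hhex* was not tested.

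Among the other islet hormone genes, those of insulin and glucagon had differences of opposite sign. *Ins2*, an insulin gene, measured 8.79 in WT against 8.40 in *Mafk*-Tg on the log2 scale, a difference of -0.40. *Gcg* was higher by 0.28, *Ppy*, the gene of pancreatic polypeptide, by 0.56 and *Pyy*, that of peptide YY, by 0.69. *Npy*, the neuropeptide Y gene, was lower with -1.22, and *Iapp*, the amylin gene, had 0.17. The difference of *Sst* lay between those of *Gcg* and *Ppy*, and that of *Ghrl* between those of *Iapp* and *Gcg*. The change of *Sst* exceeded that of *Ins2* by 0.87 on the log2 scale, and the change of *Ghrl* exceeded it by 0.60. Of the 6 measured hormone genes beside *Sst* and *Ghrl*, 3 were at least 1.2-fold higher and 2 lower.

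**Figure D3:**
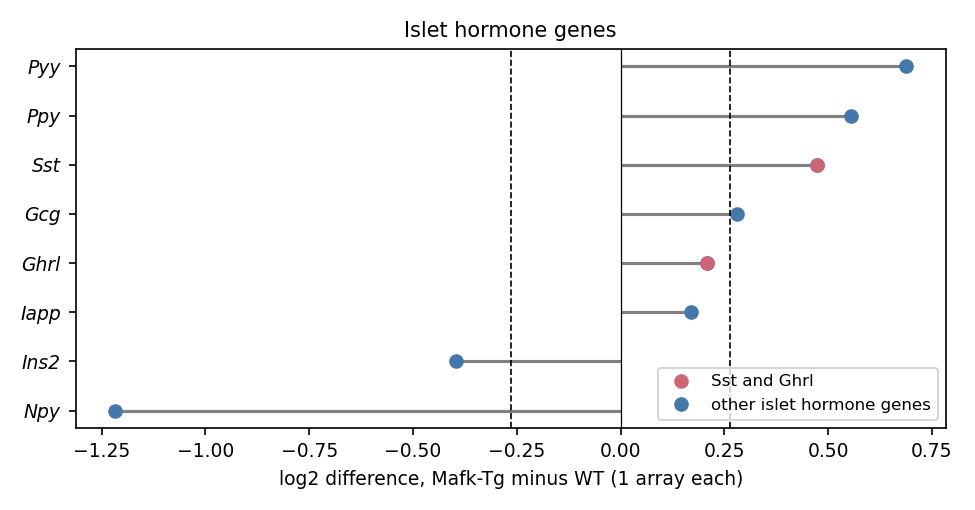
Difference on the log2 scale, as *Mafk*-Tg minus WT, for islet hormone genes, with *Sst* and *Ghrl* in red, 1 array per genotype and dashed lines marking 1.2-fold. *Sst* at 0.47 lies with *Pyy*, *Ppy* and *Gcg* past the cutoff, *Ghrl* at 0.21 lies under it, and *Ins2* and *Npy* lie on the other side of 0.

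Genes that accompany *Sst* in δ-cells gave a mixed picture. Of 8 measured, 3 were at least 1.2-fold higher and 2 lower, with a median difference of 0.15. The shares were 7.96% and 10.5% over all genes, and 11.1% and 16.6% over genes below the median level. *Rbp4*, the retinol carrier gene, had 8.70 in WT against 9.25 in *Mafk*-Tg, a difference of 0.55, and *Ptprz1*, a receptor phosphatase gene, had 0.44. *Cckbr*, the gastrin and cholecystokinin receptor gene, had -0.47 and the Wnt inhibitor gene *Frzb* -0.31. *Cckbr* measured 4.74 in WT against 4.27 in *Mafk*-Tg, in the range of olfactory receptor genes on both arrays. Of these 8 genes, 5 had mean levels below the median of the arrays, and the 3 above it had a median of 0.43.

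Transcription factors govern the numbers of somatostatin and ghrelin cells. Of 14 endocrine factor genes 8 were at least 1.2-fold higher and 1 lower, with a median difference of 0.26, beside shares of 7.96% and 10.5% of all genes. *Pou3f4*, an α-cell factor gene on the X chromosome, had 0.68 and *Neurog3* 0.51, while *Mafa*, the factor gene of mature β-cells, had -0.47. *Isl1*, a LIM-homeodomain gene that all islet endocrine cells use, had 0.47, *Pax6* 0.27 and *Pax4* 0.26. *Pdx1*, which is kept on in β- and δ-cells, had 0.37. *Nkx2-2*, whose loss in mice turns many islet cells into ghrelin cells, had 7.86 in WT against 7.90 in *Mafk*-Tg, a difference of 0.04. *Pax4*, *Pax6*, *Isl1*, *Pdx1* and *Nkx2-2* were named after their values had been seen.

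Of 13 acinar genes 4 were at least 1.2-fold higher, 0 were lower and 9 did not reach the cutoff, with 11 above 0 and a median difference of 0.24. *Try10*, a trypsinogen gene, had 0.64 and *Cpb1*, a carboxypeptidase gene, 0.54. The summed log2 level of the acinar genes was 15.35 in WT and 15.49 in *Mafk*-Tg. Their part in the values of *Sst*, *Ghrl* and *Hhex* was not tested. Nerve and glia genes, since some neurons make somatostatin, had a median of 0.12 with 1 of 9 higher, *Ret* at 0.40. Mesenchyme genes had -0.15, with 3 of 12 lower, led by *Nkx2-5* at -0.46 and *Myl9* at -0.43. Erythroid genes had -0.52, led by *Car1* at -1.19 and *Rhag* at -1.11, while the embryonic globin gene *Hbb-y* was higher by 0.35. The 8 reference genes had a median of 0.02 and 0 of them reached 1.2-fold.

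**Figure D4:**
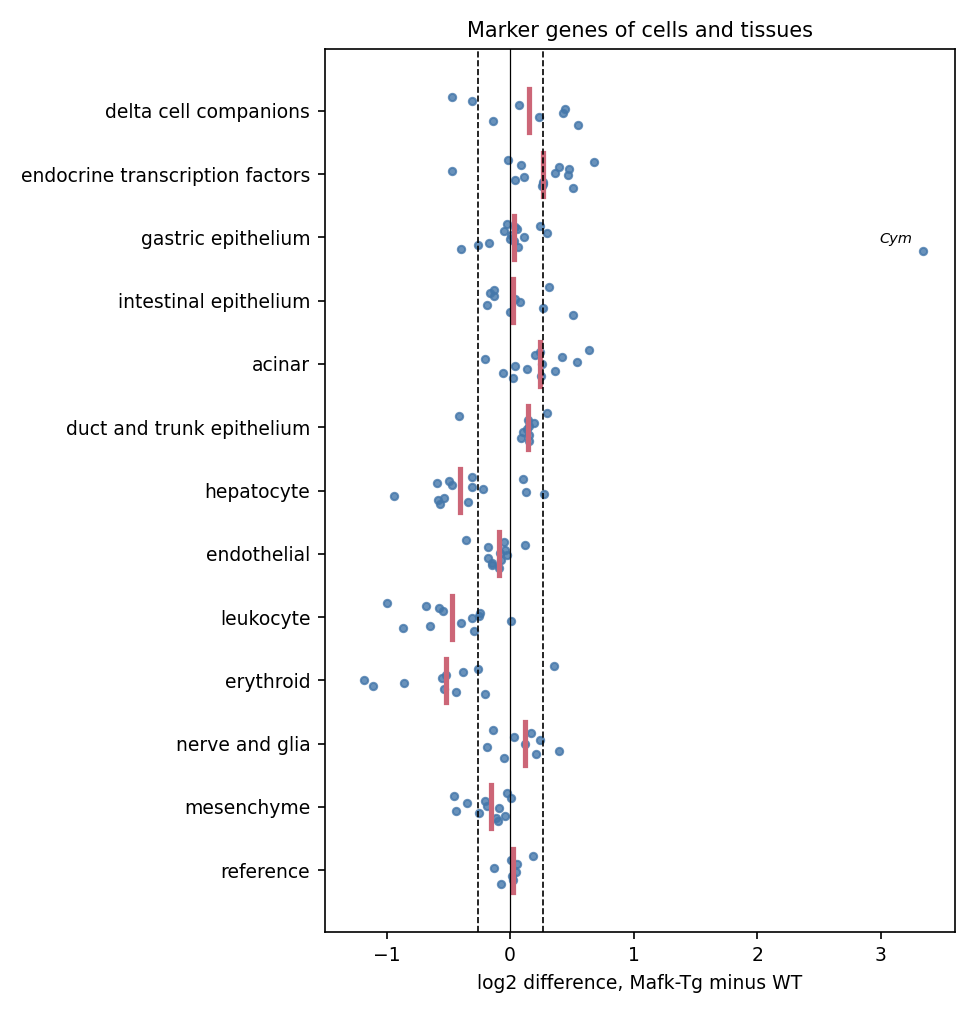
Differences on the log2 scale, as *Mafk*-Tg minus WT, for every measured gene (points) and the median (bars) of 13 lists of cell and tissue genes, 1 array per genotype, with dashed lines at 1.2-fold. Endocrine factor and acinar genes have medians of 0.26 and 0.24, leukocyte and erythroid genes of -0.47 and -0.52, and *Cym* at 3.34 stands apart from the other gastric genes.

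The signalling genes downstream of the receptors stayed near the background. Of 14 genes of inhibitory G protein signalling 1 was at least 1.2-fold higher and 2 lower, with a median difference of 0.03. The G protein genes *Gnai1* and *Gnao1* had 0.23 and 0.22, and *Gnai2* had -0.03. *Kcnj5*, the gene of a potassium channel opened by these G proteins, measured 4.59 in WT against 4.92 in *Mafk*-Tg, a difference of 0.33 within the range of olfactory receptor genes. *Arrb1* and *Arrb2*, the genes of the β-arrestins that silence and internalise receptors, were lower on the *Mafk*-Tg array, with 8.31 and 7.88 for *Arrb1* and 7.73 and 7.31 for *Arrb2*. Their differences of -0.43 and -0.42 stand beside the median of -0.47 of leukocyte genes, and blood cells also express both. The part of blood cells in them was not tested.

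Of 10 adenylyl cyclase genes, whose enzymes are inhibited through somatostatin receptors, 0 were higher and 1 was lower, *Adcy7* at -0.33, with a median of -0.04. Of 8 genes of the Gq pathway, to which GHSR couples, 0 were higher and 0 lower, with differences from -0.19 to 0.24. Of 9 genes of prohormone processing and storage, 1 was higher and 1 lower. These were the granin genes *Chgb* at 0.73 and *Chga* at -0.32. *Pcsk1*, the convertase gene needed to cut proghrelin, had -0.02, and the carboxypeptidase gene *Cpe* had 0.20.

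Of the related ligands and cofactors, 4 of 5 were measured. *Cort*, the gene of cortistatin, a peptide that binds the somatostatin receptors, had 6.02 in WT against 5.83 in *Mafk*-Tg, a difference of -0.19. *Leap2*, the gene of a peptide antagonist of GHSR, had 4.02 and 3.79, a difference of -0.23, in the range of olfactory receptor genes. *Mrap2*, whose product enhances GHSR signalling, had 5.21 and 5.51, a difference of 0.30, and was the only one of the 4 past the cutoff, although its WT value lay under the 95th percentile of olfactory receptor genes. *Gpr39*, the gene of a receptor related to GHSR, had 6.17 and 6.34, a difference of 0.17.

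**Figure D5:**
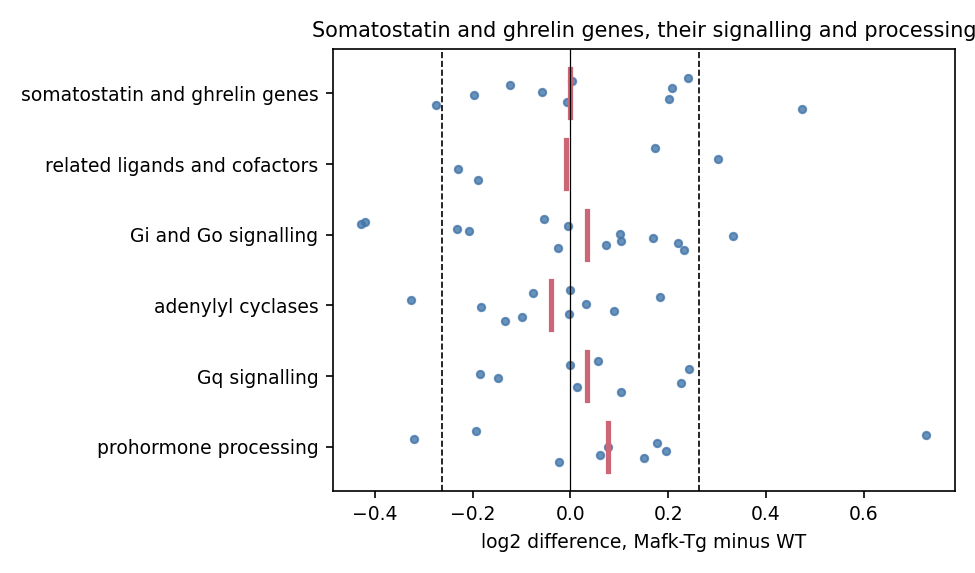
Differences on the log2 scale, as *Mafk*-Tg minus WT, for every measured gene (points) and the median (bars) of the somatostatin and ghrelin genes and of 5 lists of their signalling and processing genes, 1 array per genotype, with dashed lines at 1.2-fold. All 6 medians lie between -0.04 and 0.08, and few points pass the cutoff on either side.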

How the data were processed

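Total RNA of whole E15.5 pancreata had been hybridised to Affymetrix MoGene-1_0-st-v1 arrays, of which 1 WT and 1 *Mafk*-Tg array were analysed. The authors normalized the arrays in Affymetrix Expression Console (version and algorithm not given in the sources used here) and deposited 1 log2 value per probe set, from 0.51 to 14.01. No further scaling was applied. Background signal compresses differences of dim genes, and precision is limited by the number of arrays. Of 35556 probe sets, 21789 had 1 symbol in the platform table. They were averaged by current RefSeq symbol into 19938 genes, and 1621 with several symbols were left out. A difference is the *Mafk*-Tg minus the WT value, called at 1.2-fold, with no test. The named genes are the 10 members, the related ligands and cofactors, the sex-linked genes and, of each other list, the 2 largest differences in each direction past 1.2-fold, and any others were picked with their values known. The members and all lists were chosen with earlier results of these data known. The robust SD is the scaled median absolute deviation. Alternatives were equal medians, quantile normalization, a loess (span 0.3), the brightest probe set, a 1.5-fold cutoff and genes at or above the median level. The scalings and the 1.2-fold call were first tested on simulated data, and the other steps were not. Python 3.11.15 was used with pandas 2.3.3, numpy 2.4.6, matplotlib 3.10.9 and statsmodels 0.14.6.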

Additional observations from a re-analysis of the deposited data

How the results depend on the processing

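No paired analysis was possible because each genotype has 1 array. Differences of the 10 genes were recomputed under equal medians, quantile normalization, the loess and the brightest probe set. Of these 40 differences, 0 moved by more than the robust SD of the 1000 genes nearest in level, and the largest shift was 0.02. The brightest probe set could not move them, since each of the 10 genes has 1 probe set. Equal medians shifts every gene by the same amount. *Sst* was at 0.47, past 1.2-fold, each time. *Sstr2* and *Mboat4*, both near 0, ranged from -0.01 to 0.01. The count of genes at least 1.2-fold lower, 1 as reported, was 0 after the loess, which left *Sstr1* at -0.25, and 0 once dim genes (below the median level) were left out, where *Sstr1* is not included. At 1.5-fold, 0 of the 10 genes were higher and 0 lower, beside 0.697% and 1.27% of all genes. Of the list medians, 4 values moved by more than 0.19, the robust SD over all genes, all when dim genes were left out, which leaves fewer genes to a list. They were the medians of the 10 genes, at 0.22 against 0.00 as reported, of the δ-cell companions at 0.43, of the intestinal genes at 0.26 and of the sex-linked genes at 6.90, where only *Xist* was left.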
